A study of Caenorhabditis elegans with 6 samples.

Results

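Ubiquitin is a small protein that is attached to other proteins by a relay of enzymes. A ubiquitin activating enzyme (E1) loads ubiquitin with the use of ATP, a ubiquitin conjugating enzyme (E2) takes it over, and a ubiquitin ligase (E3) passes it to the target, which is often then degraded by the proteasome. Related relays attach the ubiquitin-like proteins SUMO, NEDD8 and UFM1, and in the *C. elegans* embryo ubiquitin-dependent degradation is known for its part in meiosis, in the clearance of maternal proteins and in the early cell divisions. The genes described here are all those of the expression table whose symbol starts with *uba*, *ubc*, *uev* or *ubq* followed by a number, which is 29 of 19933 genes. They comprise 3 E1 or E1 subunit genes, 21 genes of the *ubc* class, 3 *uev* genes, whose products resemble E2s but lack the catalytic cysteine, and 2 genes that encode ubiquitin itself. The rule used names only and no measured value.

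The study compared gene expression in embryos of wild-type hermaphrodites of the N2 strain that were fed bacteria with empty vector (EV RNAi, the negative control) or *pri-1* RNAi, which targets the DNA primase subunit gene *pri-1*. Both groups started as synchronized L1 larvae and were kept at 20 °C for 96 h. Each library was made from total RNA of a pool of eggs, and there were 3 libraries in each group. The study describes the replicates as separate experiments, while the labels only number them, and the p-values measure the spread between these libraries.

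Expression was measured in CPM (reads per 1000000 reads), from 122751288 to 162069414 reads per library as recovered from the values. *pri-1* itself was at 41.2, 47.2 and 26.9 CPM in EV replicates 1 to 3 and at 28.6, 28.7 and 24.3 CPM after *pri-1* RNAi. The groups overlapped, and the log2 fold change of -0.46 (SE 0.29, n = 3 libraries per group, limma, adjusted p = 0.285) did not pass the threshold. Of 14801 genes tested with limma at an adjusted p-value below 0.05, 2564 were higher and 1471 were lower after *pri-1* RNAi, a split that quantile normalization changed to 2473 and 2552. The EV libraries were spread more widely than the *pri-1* RNAi libraries, with a median SD over all tested genes of 0.45 against 0.29 on the log2 scale. The median log2 fold change was 1.1 for 15 maternal and early embryo markers, of which 3 were higher and 1 was lower, 0.33 for 10 early zygotic markers, of which 2 were higher, and -1.12 for 20 late differentiation markers, of which 2 were higher and 3 were lower. Over all tested genes, 17.3% were higher and 9.94% were lower. The summed level of the late markers had a range from 8379 to 18170 CPM in EV and from 4437 to 9994 CPM in *pri-1* RNAi, so that the groups overlapped, and that of the maternal markers from 398 to 626 CPM and from 757 to 1010 CPM. The maternal sum rests largely on a few genes, among them *skn-1* (means of 239 CPM in EV and 417 CPM in *pri-1* RNAi) and *mex-3* (34.7 and 206 CPM). Of the 15 maternal markers, 12 had a log2 fold change above 0, and the gene called lower was *nos-2* (-1.60, limma, adjusted p = 0.0344). No marker of either list was at 0 in all libraries. The 6 yolk genes of the adult intestine summed to 782, 13.03 and 103 CPM in EV replicates 1 to 3 and after *pri-1* RNAi to between 16.7 and 61.3 CPM. The part of embryo stage, or of adult RNA, in the results below was not tested.

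Of the 29 genes, 27 passed the filter, which asked for 0.5 CPM or more in 3 of the 6 libraries, and all 27 reached 0.5 CPM in each of the EV libraries, so that none entered only through the *pri-1* RNAi group. After *pri-1* RNAi, 4 genes were higher (*uba-1*, *ubc-23*, *ubc-22* and *uev-2*), 2 were lower (*ubc-14* and *ubc-3*) and 21 did not pass the threshold. The 4 higher genes were 14.8% of the members, against 17.3% of all tested genes, and the 2 lower genes were 7.41%, against 9.94%. The family as a whole therefore did not stand apart from the transcriptome by its share of calls, and its median log2 fold change of 0.0007 lay beside a median of -0.01 over all tested genes. At an unadjusted limma p-value below 0.05 there were 10 members, but the share over all tested genes was not taken at this threshold, so that the count is not read further. Every *pri-1* RNAi library lay above every EV library for 7 tested members (25.9%, against 25.4% of all tested genes), and below for 4 (14.8%, against 19.8%). The genes past the threshold were at very different expression levels, and a gene that did not pass is not thereby shown to be unchanged.

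**Figure D1:**
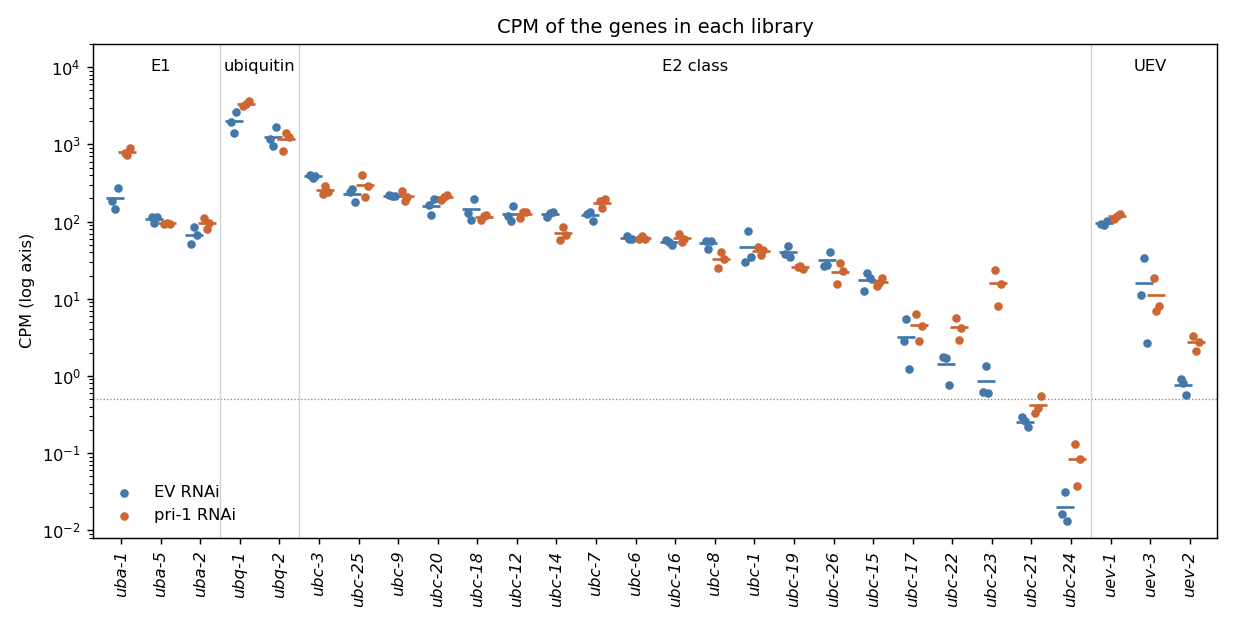
CPM of 28 of the 29 genes in each library on a log axis, ordered by role and then by EV mean. Points are single libraries, horizontal dashes are means of 3 libraries, and the dotted line is the filter at 0.5 CPM. *uba-1* and *ubc-23* show a wide gap between the EV and *pri-1* RNAi libraries, while most *ubc* genes overlap.

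The E1 genes differed from each other in their response. *uba-1* (WBGene00006699, chromosome IV, 9989671 to 9994945, minus strand, WBcel235) encodes the sole E1 for ubiquitin in this worm. Its level was 185, 145 and 274 CPM in EV replicates 1 to 3 and 780, 739 and 894 CPM after *pri-1* RNAi. The lowest *pri-1* RNAi library thus lay far above the highest EV library, EV replicate 3. The mean rose from 202 ± 66.0 to 805 ± 80.3 CPM (SD, n = 3), a ratio of 3.99, and the log2 fold change on the log2(CPM + 0.5) scale was 2.04 (SE 0.26, limma, adjusted p = 0.00184). It passed the threshold in all 18 alternatives, with values between 1.67 and 2.29, and in edgeR, fitted to the recovered reads (1.67, adjusted p = 0.0297). Each library is a pool of whole embryos, so that more RNA per cell and more cells that express the gene cannot be told apart, here and for every gene below.

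The E1 genes of the ubiquitin-like relays did not show a change of this size. *uba-2*, which encodes the subunit that works with AOS-1 to activate SUMO, was at 50.5, 84.0 and 67.3 CPM in EV and at 111, 80.9 and 95.6 CPM in *pri-1* RNAi, and the groups overlapped in EV replicate 2. Its log2 fold change of 0.53 (95% interval -0.078 to 1.13, limma, adjusted p = 0.177) did not pass the threshold. It did with a block for the number in each library's name, which differs from the replicate number in part of the libraries (0.70, adjusted p = 0.0223). In that fit, EV replicate 2 and *pri-1* RNAi replicate 3 share their number with no library of the other group. They therefore do not enter the comparison, which leaves out the EV library in which the groups overlapped. Over all tested genes, that fit called 4159 higher, against 2564 in the main fit. *uba-5*, the E1 for UFM1, was at 113, 96.2 and 113 CPM in EV and at 93.7, 96.8 and 92.7 CPM in *pri-1* RNAi. This log2 fold change was -0.18, with an interval from -0.63 to 0.26, which lies wholly below the interval of *uba-1*, 1.43 to 2.65. Within single libraries, the CPM ratio of *uba-1* to *uba-5* was 1.63, 1.51 and 2.42 in EV and 8.32, 7.63 and 9.65 in *pri-1* RNAi. A ratio of this kind is free of the scaling of the libraries, and only its change between groups is read, since the genes differ in length.

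The ubiquitin genes carry the substrate of the relay. *ubq-1*, the polyubiquitin gene, was at 1955, 1385 and 2624 CPM in EV and at 3155, 3295 and 3690 CPM in *pri-1* RNAi. No *pri-1* RNAi library overlapped an EV library, with means of 1988 ± 620 and 3380 ± 278 CPM (SD, n = 3), but the log2 fold change of 0.81 (SE 0.27, limma, adjusted p = 0.0619) missed the threshold. It passed without EV replicate 3 (1.04, limma, adjusted p = 0.0213) and with quantile normalization (0.85, adjusted p = 0.00853), whereas with trimmed-mean (TMM) scaling of the libraries the groups overlapped. *ubq-2* encodes ubiquitin fused to the ribosomal protein L40. It was at 1159, 953 and 1682 CPM in EV and at 827, 1422 and 1259 CPM in *pri-1* RNAi, with a log2 fold change of -0.11 (95% interval -0.81 to 0.59). Both genes contain ubiquitin-coding sequence, and how reads from it were divided between them by the authors' estimates is uncertain.

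Ratios within a library that involve *ubq-1* were separate between the groups, as the CPM levels of *ubq-1* already were. The CPM ratio of *ubq-1* to *ubq-2* was 1.69, 1.45 and 1.56 in EV and 3.81, 2.32 and 2.93 in *pri-1* RNAi. The ratio of *uba-1* to *ubq-1* was 0.0947, 0.105 and 0.105 in EV and 0.247, 0.224 and 0.242 in *pri-1* RNAi, so that these genes kept a nearly fixed ratio within each group although both levels varied among the EV libraries. Each had an exact two-sided permutation p of 0.1, the smallest that 3 libraries against 3 allow. Of 8 such ratios, chosen after their values were seen, 7 had this p-value (0.114 after Benjamini-Hochberg adjustment over the 8). The ratio of *uba-2* to *aos-1*, the SUMO E1 partner, overlapped between groups (exact permutation p = 0.4).

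**Figure D2:**
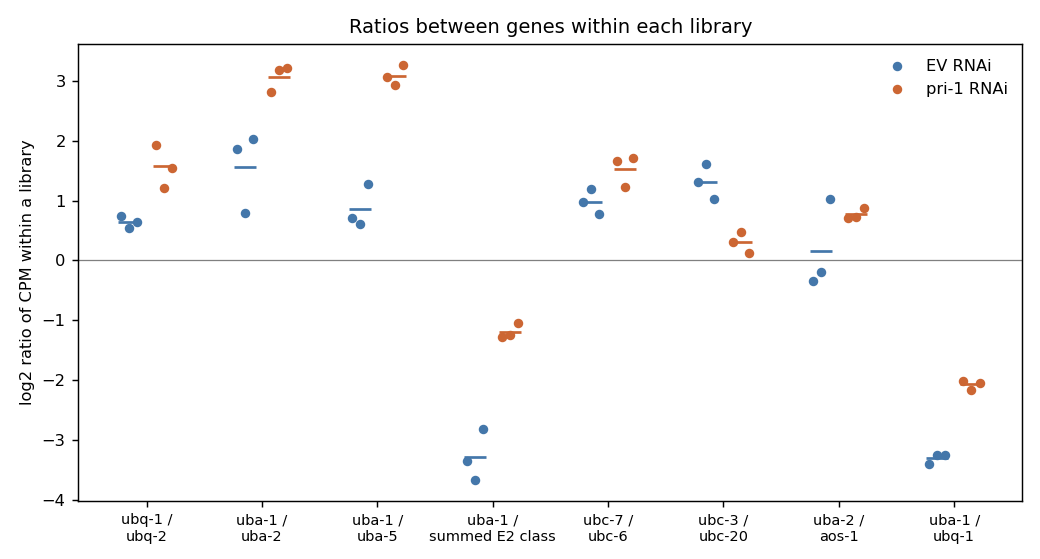
Log2 ratio of the CPM of pairs of genes within each library, with EV and *pri-1* RNAi libraries as points and group means as dashes (n = 3 each). The groups are separate for 7 of the 8 ratios, and *uba-1* to *ubq-1* is tight within each group, between -3.40 and -3.25 in EV and between -2.16 and -2.02 in *pri-1* RNAi.

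Among the *ubc* genes, which include the E2s, 19 of 21 were tested. Of these 19, 2 were higher and 2 were lower, against 17.3% and 9.94% of all tested genes. The counts are not read as a result about the class. The higher pair are low-level genes that lie close together on chromosome X. *ubc-23* (WBGene00006718, chromosome X, 8844288 to 8846275, plus strand) was at 0.611, 1.34 and 0.600 CPM in EV and at 23.7, 8.08 and 15.6 CPM in *pri-1* RNAi. These values rest on 75, 171 and 92 recovered reads in EV and on 3059, 1310 and 2415 reads in *pri-1* RNAi. Even the lowest *pri-1* RNAi library, replicate 2, lay well above the highest EV library. The mean rose from 0.851 ± 0.425 to 15.8 ± 7.79 CPM (SD, n = 3), a ratio of 18.6. On the log2(CPM + 0.5) scale, where a low gene's change is understated, the log2 fold change was 3.51 (SE 0.47, limma, adjusted p = 0.00204), and edgeR on recovered reads gave 4.04 (adjusted p = 0.000702). It passed the threshold in all 18 alternatives.

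*ubc-22* (WBGene00006717, chromosome X, 8867603 to 8869162, minus strand) starts 21328 nt beyond the end of *ubc-23*. It was at 1.78, 1.71 and 0.757 CPM in EV and at 5.71, 2.88 and 4.20 CPM in *pri-1* RNAi, with no overlap. The log2 fold change was 1.32 (SE 0.38, limma, adjusted p = 0.0381). This call was lost in 6 of 17 alternatives, among them when EV replicate 1 (1.47, adjusted p = 0.0828) or 3 (1.04, 0.0502) was omitted, or *pri-1* RNAi replicate 1 (1.11, 0.132) or 3 (1.31, 0.138), while edgeR kept it (1.45, adjusted p = 0.0143). *ubc-21* lies 463 nt from *ubc-22* on the opposite strand and did not pass the filter. It was at 0.293, 0.259 and 0.215 CPM in EV and at 0.333, 0.383 and 0.544 CPM in *pri-1* RNAi, which is 33 to 36 reads and 43 to 84 reads.

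The genes around this group on chromosome X did not all follow. Between *ubc-23* and *ubc-22*, the tested genes were *C28G1.10* (-0.031), *sprp-4* (0.69) and *C06E2.5* (0.62), and beyond *ubc-21* lay *C06E2.1* (-0.20), all as log2 fold changes that did not pass the threshold in limma. A pair of genes in between was under the filter and was called higher by edgeR, with every *pri-1* RNAi library above every EV library. *C06E2.9* was at 0.163, 0.220 and 0.176 CPM in EV and at 0.681, 0.487 and 0.524 CPM in *pri-1* RNAi (edgeR log2 fold change 1.38, adjusted p = 0.0428). *ins-9*, an insulin-like peptide gene, had 0, 2 and 0 reads in EV and 23, 24 and 27 reads in *pri-1* RNAi (edgeR adjusted p = 0.00659). The nearest of them, *C28G1.10*, lies 847 nt from *ubc-23* on the same strand and was at 1.81 ± 0.592 CPM in EV and 1.72 ± 0.317 CPM in *pri-1* RNAi (SD, n = 3). Around *uba-1*, *mam-2* overlaps the end of the gene by a few bases on the opposite strand and went the other way, from 15.7 to 3.07 CPM on average (log2 fold change -2.10, limma, adjusted p = 0.0141). *pyp-1*, which lies 440 nt from *uba-1* on its other side, did not pass the threshold (log2 fold change -0.27, adjusted p = 0.498), while *sars-1*, a seryl-tRNA synthetase gene 8781 nt away, was higher like *uba-1* (1.5, adjusted p = 0.0033).

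The lower pair are well expressed. *ubc-3*, the counterpart of yeast Cdc34 and the E2 of SCF ubiquitin ligases, was at 405, 366 and 391 CPM in EV and at 230, 293 and 241 CPM in *pri-1* RNAi. The EV libraries were close together, and every *pri-1* RNAi library lay below them. The mean fell from 387 ± 19.8 to 255 ± 33.2 CPM (SD, n = 3), with a log2 fold change of -0.61 (SE 0.19, limma, adjusted p = 0.0481). This call was lost in 12 of 18 alternatives, edgeR (-0.82, adjusted p = 0.114) and DESeq2 included. Of the single libraries, only the removal of *pri-1* RNAi replicate 2 kept it, and without each of the others the adjusted p was between 0.0526 and 0.212.

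*ubc-14* was at 116, 128 and 134 CPM in EV and at 58.5, 86.2 and 68.0 CPM in *pri-1* RNAi, with no overlap. Its mean fell from 126 ± 9.11 to 70.9 ± 14.1 CPM (SD, n = 3), and the log2 fold change was -0.84 (SE 0.22, limma, adjusted p = 0.0278). It was lost in 7 of 18 alternatives: with TMM scaling (-0.92, adjusted p = 0.0644), with median centring (-0.63, 0.249), with the replicate block (-0.84, 0.0597), in edgeR (-1.04, 0.0513), and without EV replicate 1 (-0.90, 0.0825) or *pri-1* RNAi replicate 1 (-0.71, 0.0967) or 3 (-0.82, 0.132). The direction was lower in every alternative for both genes.

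Further *ubc* genes were separated between groups without passing the threshold in limma. *ubc-8* was at 56.8, 44.7 and 55.8 CPM in EV and at 25.1, 40.2 and 32.7 CPM in *pri-1* RNAi (log2 fold change -0.69, adjusted p = 0.0930, and -0.81, adjusted p = 0.0185, with the block for library names, which compares only part of the libraries). *ubc-19* was at 37.6, 47.8 and 34.7 CPM in EV and at 26.1, 26.3 and 24.5 CPM in *pri-1* RNAi (-0.62, adjusted p = 0.1003). *ubc-7* was at 127, 134 and 101 CPM in EV and at 185, 150 and 194 CPM in *pri-1* RNAi (0.55, adjusted p = 0.0992). Its name is shared with a yeast E2 of protein degradation at the endoplasmic reticulum (ER), which does not by itself give it the same role. The tools differed here. edgeR called 4 members higher, against 20.2% of the 17784 genes it tested, and 1 member lower, against 15.5%. The higher genes were again *uba-1*, *ubc-22*, *ubc-23* and *uev-2*, but the lower gene was *ubc-19* (-0.82, adjusted p = 0.0388) and neither *ubc-3* nor *ubc-14*.

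**Figure D3:**
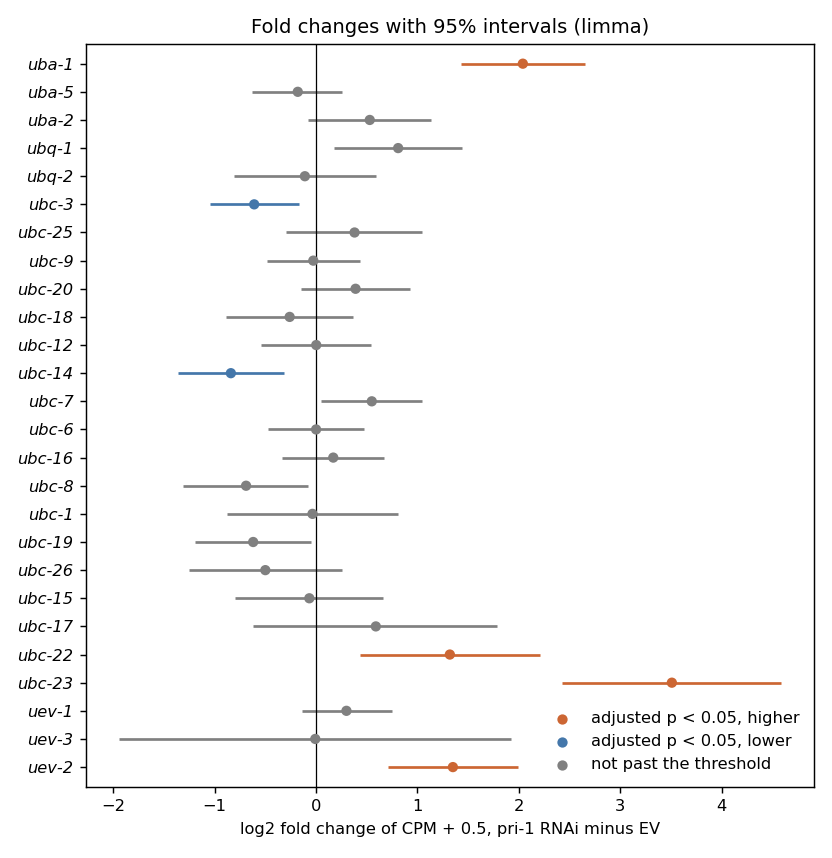
Log2 fold change (*pri-1* RNAi minus EV, on the log2(CPM + 0.5) scale) of 26 of the 27 tested genes with limma's 95% interval, n = 3 libraries per group. The 4 genes in orange and the 2 in blue passed an adjusted p-value of 0.05, and the interval of *uev-3*, from -1.94 to 1.92, is wide.

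The E2s of SUMO and NEDD8 overlapped between the groups and did not pass the threshold. *ubc-9*, the SUMO E2, was at 219, 217 and 216 CPM in EV and at 252, 186 and 206 CPM in *pri-1* RNAi (log2 fold change -0.027, 95% interval -0.48 to 0.43). *ubc-12*, the NEDD8 E2, was at 118, 103 and 159 CPM in EV and at 110, 131 and 134 CPM in *pri-1* RNAi (0.0021, -0.54 to 0.54). *ubc-6*, named like a yeast E2 of the ER membrane, was at 64.5, 58.9 and 58.8 CPM in EV and at 58.7, 64.4 and 59.2 CPM in *pri-1* RNAi (0.0007, -0.47 to 0.47). These intervals leave room for changes of up to about 1.35- to 1.46-fold upward, so that small changes could not be shown. *ubc-1*, the counterpart of yeast RAD6, had a log2 fold change of -0.035 (95% interval -0.88 to 0.81), with EV replicate 2 at 75.03 CPM against 30.3 and 35.0 CPM in the other EV libraries.

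The other tested *ubc* genes overlapped between groups. *ubc-18*, which works with the ligase ARI-1, had a log2 fold change of -0.26, and *ubc-20*, an E2 related to human UBE2K, one of 0.39. *ubc-25*, described as a gene of neurons and muscle, was at 242, 261 and 177 CPM in EV and at 406, 209 and 288 CPM in *pri-1* RNAi (0.38, adjusted p = 0.382). *ubc-15* (-0.066) and *ubc-26* (-0.50) are neighbours on chromosome II, 1053 nt apart on the same strand. *ubc-16* and *ubc-17* had values of 0.17 and 0.59. *ubc-24* was barely detected, with 2, 4 and 2 reads in EV and 17, 6 and 13 reads in *pri-1* RNAi, where 3 reads, the smallest level taken as detected, correspond to 0.0185 to 0.0244 CPM.

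The *uev* genes divided in the same manner. *uev-1* was at 93.5, 90.5 and 102 CPM in EV and at 109, 117 and 127 CPM in *pri-1* RNAi. All *pri-1* RNAi libraries were above all EV libraries by a small margin, and the log2 fold change of 0.30 (limma, adjusted p = 0.283) did not pass. *uev-2* (WBGene00006731, chromosome III, 5583125 to 5584522, plus strand) was at 0.912, 0.800 and 0.568 CPM in EV and at 3.30, 2.10 and 2.77 CPM in *pri-1* RNAi, which is 87 to 112 and 340 to 428 reads. It rose by 1.35 on the log2(CPM + 0.5) scale (SE 0.28, limma, adjusted p = 0.0105), a ratio of 3.58, and the call was lost only without *pri-1* RNAi replicate 3 (1.33, adjusted p = 0.0577) among 17 alternatives. *uev-3*, which acts in a neuronal p38 kinase pathway, was at 11.3, 33.4 and 2.65 CPM in EV and at 18.8, 6.95 and 8.17 CPM in *pri-1* RNAi. Its EV libraries alone spanned more than the groups differed, with an SD of 1.72 on the log2 scale, so that even a large change could not have been shown.

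Summed over the 21 *ubc* genes, expression in CPM was nearly the same in all libraries, at 1907, 1851 and 1939 CPM in EV and 1902, 1752 and 1847 CPM in *pri-1* RNAi. After TMM scaling the same sums were 1825, 1463 and 2783 in EV and 1651, 1874 and 1832 in *pri-1* RNAi, so that the steady sum holds for CPM only. The 3 E1 genes summed to 349, 326 and 455 CPM in EV and to 986, 917 and 1082 CPM in *pri-1* RNAi. *uba-1* relative to the summed *ubc* genes thus went from 0.106 ± 0.0324 to 0.439 ± 0.0397 (SD, n = 3). The make-up of the *ubc* sum differed between the groups. For *ubc-3*, *ubc-14* and *ubc-7*, whose CPM levels were already separate, the shares largely restate the differences given above. Per kilobase of the longest annotated transcript, *ubc-3* took 17.3% to 18.9% of the sum in EV and 11.4% to 14.8% in *pri-1* RNAi, and *ubc-14* 9.58% to 11.1% and 5.14% to 7.72%. *ubc-20*, which overlapped between the groups in CPM (limma, adjusted p = 0.253), took 6.98% to 10.1% in EV and 10.97% to 12.7% in *pri-1* RNAi. *ubc-7* took 5.49% to 8.09% and 9.28% to 11.7%. The CPM ratio of *ubc-3* to *ubc-20* was 2.48, 3.05 and 2.02 in EV and 1.23, 1.4 and 1.1 in *pri-1* RNAi.

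**Figure D4:**
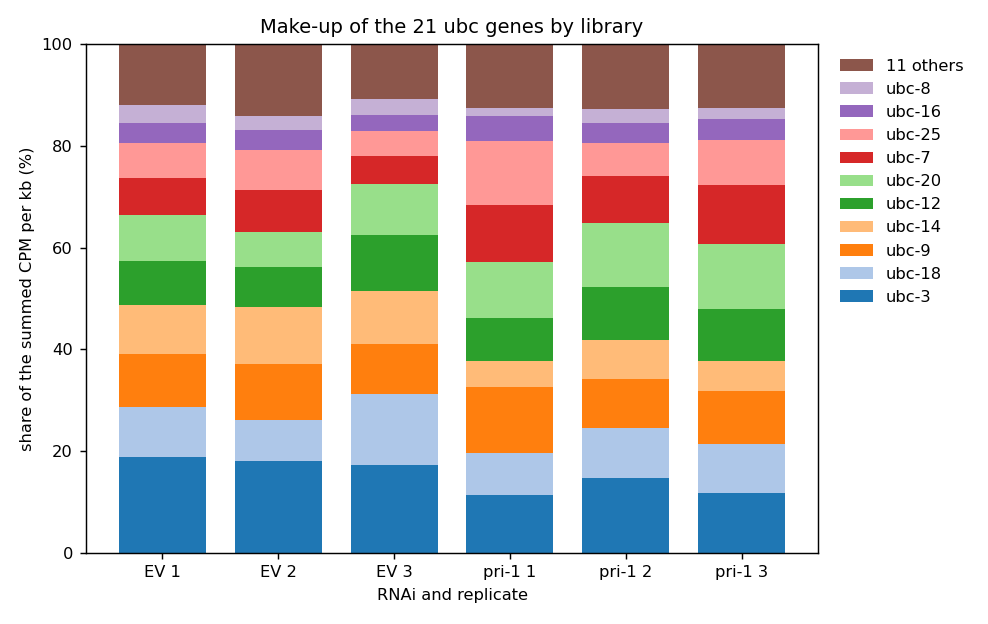
Share of each *ubc* gene in the summed CPM per kilobase of the 21 *ubc* genes, as stacked bars for each library, with 10 genes of high EV share named and the 11 others pooled. *ubc-3*, at the base of each bar, narrows from an average of 18.1% in EV to 12.7% in *pri-1* RNAi, and *ubc-14* from 10.4% to 6.25%.

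On this per-length scale, *ubq-2* and *ubq-1* were first and second of the 29 genes in both groups, at 2908 ± 863 and 704 ± 220 CPM per kb in EV and at 2688 ± 706 and 1197 ± 98.3 CPM per kb in *pri-1* RNAi (SD, n = 3). *ubc-3* was the third in both. *uba-1* moved from rank 16, at 55.6 ± 18.2 CPM per kb, to rank 5, at 222 ± 22.2 CPM per kb. It was then level with *ubc-20* at 226 ± 18.2 and *ubc-9* at 206 ± 32.3 CPM per kb, from which it did not differ beyond their spread. *ubc-23* moved from 0.713 ± 0.356 to 13.2 ± 6.53 CPM per kb, yet was still 22nd of the 29 genes in *pri-1* RNAi.

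Other genes of the ubiquitin system, from lists written by name, showed few calls. Among 26 partners of ubiquitin-like conjugation, 1 was higher and none was lower in limma, and edgeR called 0 in either direction. The higher gene was *ulp-4*, a SUMO protease (log2 fold change 0.72, adjusted p = 0.0425), and *smo-1*, which encodes SUMO, was at 254, 281 and 312 CPM in EV and at 425, 340 and 415 CPM in *pri-1* RNAi (0.47, adjusted p = 0.114). Of 20 ligases, mainly of the HECT, RBR and U-box types, 2 were higher, the RBR gene *ari-1.4* (1.07, adjusted p = 0.0127) and the HECT gene *hecd-1* (1.03, adjusted p = 0.0124), where 17.3% of all tested genes were higher. edgeR called neither of them, and called *ari-1.3* higher (1.24, adjusted p = 0.0292) and *ari-2* (-1.11, 0.0458) and *pdr-1* (-0.77, 0.0348) lower. The median log2 fold change was 0.15 for the partners and 0.38 for the ligases, against -0.01 over all tested genes.

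Deubiquitinases remove ubiquitin, and their list here also holds the related genes *csn-5*, *csn-6*, *eif-3.H* and *eif-3.F*, none of which was called. Of the 26 tested genes of the list, 3 were higher and 1 was lower, with a median log2 fold change of 0.05. *usp-14*, a deubiquitinase of the proteasome, was at 69.7, 74.0 and 77.1 CPM in EV and at 235.1, 156 and 217 CPM in *pri-1* RNAi (1.43, SE 0.22, limma, adjusted p = 0.00374). *rpn-11*, the deubiquitinase of the proteasome lid, was at 149, 106 and 220 CPM in EV and at 324, 311 and 376 CPM in *pri-1* RNAi (1.15, adjusted p = 0.0221). *otub-1* was also higher (0.79, adjusted p = 0.0251), and *ubh-1*, a ubiquitin C-terminal hydrolase, was lower (-1.41, adjusted p = 0.0119). Of these 4, edgeR called *usp-14* (1.2, adjusted p = 0.0196) and *ubh-1* (-1.62, adjusted p = 0.0133). The share of 3 in 26 higher genes is below the 17.3% of all tested genes.

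**Figure D5:**
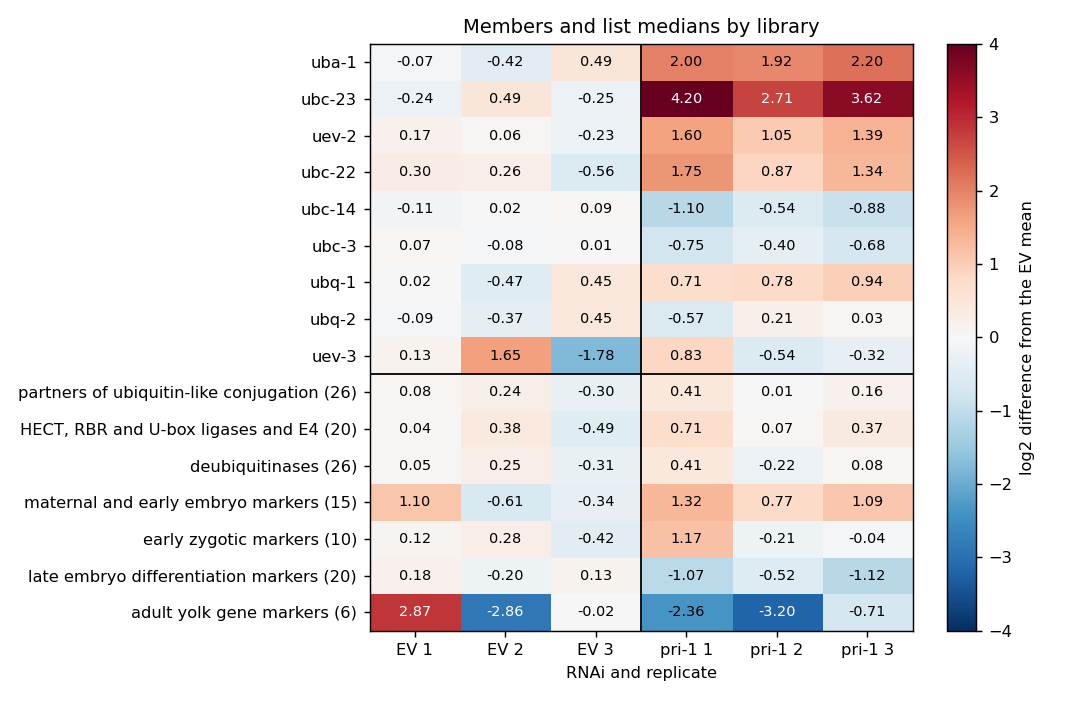
Log2 difference of each library from the EV mean, for 9 genes of the family (upper rows) and for the median of each list of genes (lower rows, number of tested genes in brackets), with red for higher and blue for lower. *uba-1* and *ubc-23* are above the EV mean by at least 1.92 and 2.71 in every *pri-1* RNAi library, and the maternal marker median is 1.1 in EV replicate 1 as well as 0.77 to 1.32 in *pri-1* RNAi, and the yolk gene median is 2.87 in EV replicate 1.

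No single EV library was the highest of its group for most of the family. Each of the 3 was the highest EV library for 9 of the 27 tested genes, and the EV SD exceeded the *pri-1* RNAi SD for 17. The median SD of the members was 0.32 in EV and 0.18 in *pri-1* RNAi on the log2 scale. *uba-1*, *ubq-1*, *ubq-2*, *ubc-12*, *ubc-18*, *ubc-20* and *uev-1* were lowest in EV replicate 2 and highest in EV replicate 3, so that part of the EV spread of these genes was shared. TMM scaling, with factors of 1.05, 1.26 and 0.697 for the EV libraries, raised the members' median EV SD to 0.53. Over all tested genes it lowered the median EV SD from 0.45 to 0.41. The number of members above in every *pri-1* RNAi library was then 5 and below 2. The share over all tested genes was not taken on the TMM scale, so that these counts are not read further. *ubq-1* and *uev-1*, and on the lower side *ubc-3* and *ubc-8*, overlapped on that scale.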

How the data were processed

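RNA-seq libraries of embryos, 3 for EV RNAi and 3 for *pri-1* RNAi, were grouped by the treatment labels. The authors trimmed reads with Trimmomatic 0.36, quantified them with Salmon 1.4.0 on the Ensembl WBcel235 transcriptome, used tximport to sum transcripts to genes, and deposited the CPM of 19933 genes. edgeR 3.32.1 is also named in the processing notes of the submitters. Each CPM column sums to 1000000. Reads were recovered by dividing by the CPM of 1 read, and 92.7% to 94.4% of values came out whole within 0.1 reads. Depth limits only genes near 3 reads, and this floor covers counting error only.

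The main test was limma 3.58.1 (R 4.3.3, lmFit, eBayes with trend) on log2(CPM + 0.5), for the genes that reached 0.5 CPM in 3 or more libraries, with Benjamini-Hochberg adjustment over all tested genes and a threshold of 0.05. edgeR 4.0.16 (quasi-likelihood, TMM) and DESeq2 1.42.0 on recovered reads were alternatives, with other pseudocounts, filters, scalings, blocks and omitted libraries. The limma and edgeR fits were also run on simulated counts with known fold changes, and the outcome is not used here. Apart from these changes the simulated libraries differed in depth but not in composition, so that the scaling was not checked. Coordinates and transcript lengths come from Ensembl release 115, in which all 29 genes were found. Every gene of the family is named but 1, which counts in the totals and is not reported here, and of other lists the called genes with the smallest p-values, as well as *smo-1*, which was added. Neighbouring genes and ratios were chosen after values were seen. The members and lists were chosen with earlier results of these data known.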

Additional observations from a re-analysis of the deposited data

How the results depend on the processing

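The members called higher (4) stayed between 3 and 5 in most settings, and were 2 at an adjusted p below 0.01, 2 when the filter was a mean of 5 CPM or more, and 2 to 4 with each library left out, the lowest without *pri-1* RNAi replicate 3. That higher filter left *ubc-22* and *uev-2* untested, since their group means did not exceed 4.26 CPM. The members called lower (2) were 1 with the higher filter, without the variance trend or in edgeR, and 0 with TMM scaling, with median centring or below 0.01. With each library left out they were 0 to 2, and 0 without EV replicate 1 or *pri-1* RNAi replicate 1 or 3. Lower calls over all 14801 tested genes also fell in these fits, from 1471 to 373, 465 and 273, so that the loss is not particular to the members. With TMM scaling they rose to 2168, and with median centring they were 1265. Higher calls over all tested genes fell from 2564 to 1437 without *pri-1* RNAi replicate 3. With the replicate number as a block, 3 members were higher and 0 were lower (2110 and 1043 over all tested genes). With the numbering of library names as a block, 5 and 3 members were called, where *uba-2* and *ubc-8* were gained. Calls over all tested genes also rose in the latter fit, to 4159 higher and 1917 lower, so that the gain is not particular to these members. The latter fit compares only libraries whose number occurs in both groups, so that EV replicate 2 and *pri-1* RNAi replicate 3 do not enter it. Whether either numbering pairs the samples is not known. The deviations of libraries with the same replicate number correlated at 0.0402, -0.323 and 0.458, and with the same library-name number at 0.0402 and 0.372. Deviations from a mean of 3 libraries are tied to each other, so that these values cannot decide it. Median centring moved the median of all genes from -0.01 to 0.20, so that its changes are to be read against this shift. Apart from the genes that the higher filter removed, the causes of these changes were not tested.

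None of the 6 called genes reversed. Of 465 alternative values of single genes, 41 reversed, all for uncalled genes near 0. With median centring the log2 fold changes were 0.028 for *uba-5*, 0.18 for *ubc-1*, 0.15 for *ubc-15*, 0.19 for *ubc-9*, 0.10 for *ubq-2* and 0.20 for *uev-3*. With quantile normalization they were 0.13 for *ubc-1*, 0.18 for *ubc-15* and 0.082 for *uev-3*, and with TMM scaling -0.077 for *ubc-12* and -0.078 for *ubc-6*. With the block taken from the numbering of library names they were 0.35 for *ubc-1*, -0.19 for *ubc-12*, 0.013 for *ubc-15*, -0.0025 for *ubc-6* and 0.97 for *uev-3*. A pseudocount of 0.1 gave 0.021 for *uev-3*. edgeR gave -0.30 for *ubc-12*, -0.045 for *ubc-16* and -0.21 for *ubc-6*, and DESeq2 gave -0.27, -0.013 and -0.18. With each library left out, values had a range from -0.29 to 0.36 for *ubc-1*, from -0.14 to 0.18 for *ubc-12*, from -0.28 to 0.097 for *ubc-15*, from -0.042 to 0.044 for *ubc-6*, from -0.15 to 0.071 for *ubc-9*, from -0.29 to 0.12 for *ubq-2* and from -0.90 to 0.82 for *uev-3*.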
